A study of Mus musculus with 18 samples.

Results

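The comparison set the 2 control groups of a study of the transcription factor Foxm1 against each other in mouse fibroblasts cultured from the ventricles of newborn hearts. OE-NC, the negative control of the overexpression arm, had 3 libraries, and si-NC, the negative control of the knockdown arm, had 3. The members were all genes with a mean of at least 1 FPKM (fragments per kilobase of transcript, scaled to the size of the library) over these 6 libraries, which 11216 of the 18264 genes in the table reached. The choice used the level over both groups and not their difference, but a gene low in either group could pass through the other. Of the tested genes, 161 had a si-NC mean under 1 FPKM and 96 an OE-NC mean under 1 FPKM. The series held 18 libraries in 6 groups of 3, and the other groups were si-Foxm1 (Foxm1 knocked down), Ang-II (angiotensin II given), si-Foxm1+Ang-II (both) and OE-Foxm1 (Foxm1 overexpressed). The labels name no vector, delivery agent, strain, sex, exact age or culture date, and they do not say whether replicates came from separate cultures or animals. P-values therefore measure the spread between these libraries, which may be technical. The arm, what was used to deliver the control sequence and any batch of culture or sequencing coincide with the 2 groups and cannot be told apart.

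A negative control of this kind carries the delivery procedure without the active sequence, so setting one beside the other asks how far the baselines of the study's arms lie apart. Several inducible programmes of fibroblasts are described below. Heat shock chaperones refold damaged proteins and are transcribed by the factor HSF1, NRF2 switches on antioxidant and iron-handling enzymes, and type I interferon acts through its receptor on a set of antiviral genes. Cardiac fibroblasts also make the collagens, elastic fibres and cross-linking enzymes of the heart's matrix, and cultures from newborn ventricles can keep cardiomyocytes, which express sarcomere proteins and natriuretic peptides.

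The si-NC libraries held 18463370 to 19012353 fragments and the OE-NC libraries 14988993 to 16384195, the fewest of the series, in which every other library had at least 17450690. Genes above 0 numbered 15532 to 15609 in si-NC and 15821 to 15878 in OE-NC, and the 10 most abundant genes took 6.15% to 6.31% and 4.84% to 4.92% of the fragments. A level of 3 fragments on a transcript of 1 kilobase corresponded to 0.158 to 0.163 FPKM in si-NC and 0.183 to 0.200 in OE-NC, so the genes tested lay above that floor on average. The 20 genes listed as marking fibroblasts, among them Col1a1, Pdgfra and Tcf21, were all detected and summed to 3470 to 3606 FPKM in si-NC and 2712 to 2912 in OE-NC. The 22 cardiomyocyte markers summed to 17088 to 18410 FPKM in si-NC and 10313 to 10881 in OE-NC. This was 4.725% to 5.074% of all summed FPKM in si-NC and 2.89% to 2.996% in OE-NC. Such sums depend on which genes are listed, and which cells expressed the markers was not tested. In bulk RNA, fewer cells of a type and less RNA per cell cannot be told apart.

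Of the 11216 genes tested, 7482 (66.7%) differed between the controls by limma on log2(FPKM + 1) at a Benjamini-Hochberg adjusted p under 0.05. OE-NC was higher for 4677 genes (41.7%) and lower for 2805 (25.0%). The 3 libraries of one group lay wholly above or below those of the other for 7909 genes (70.5%). Most differences were small: the median over all genes was 0.06 on the log2 scale, and the 5th and 95th percentiles were -0.47 and 0.61. A change of at least 2-fold was called for 118 genes higher in OE-NC (1.05%) and 45 lower (0.401%). The balance of directions depended on scaling. With median-of-ratios scaling 3631 genes were higher and 3813 lower, and with quantile normalization 3675 and 3750, so the higher share of the calls went from 62.5% to 48.8% and 49.5%. Where a list's balance turned with scaling, those counts are given beside the main ones. Each main count of list members is to be read against the 41.7% higher and 25.0% lower of all tested genes. Changes of single genes are on the scale log2(FPKM + 1), which understates those of low genes.

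**Figure D1:**
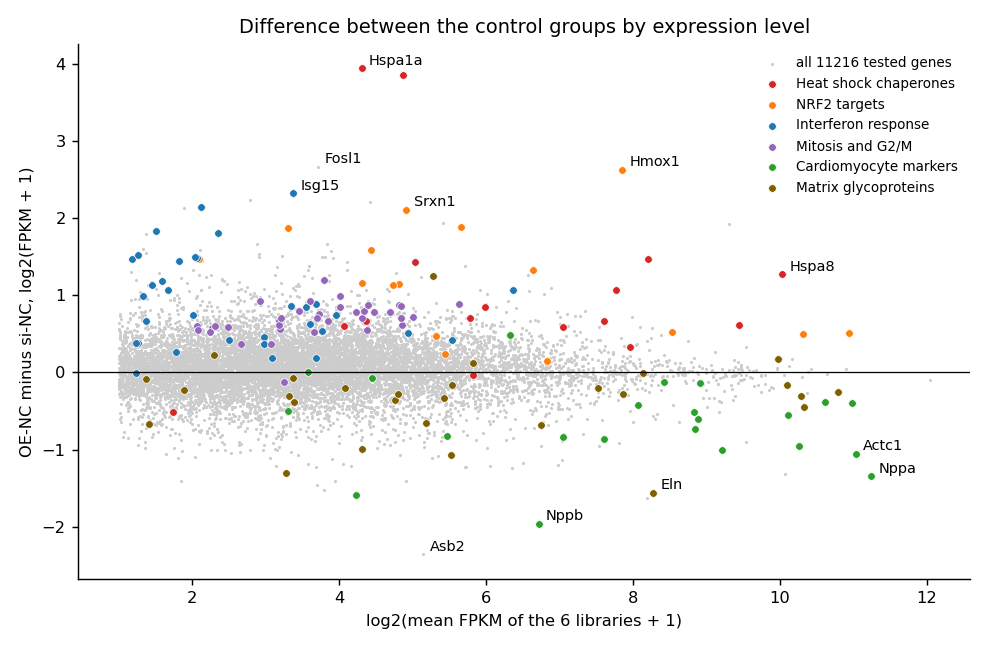
Each point is 1 of 11216 tested genes, with the log2 of its mean FPKM plus 1 over the 6 libraries on the x axis and the difference OE-NC minus si-NC in log2(FPKM + 1) on the y axis; coloured points are members of 6 gene lists. NRF2 genes lie above 0, and heat shock and interferon genes nearly all do, apart from Hspa2, Bag3 and Gbp2, up to Hspa1a at 3.94, and cardiomyocyte and matrix genes lie mostly below it, down to Nppb at -1.96.

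Neither control was labelled as altered in Foxm1, a forkhead factor that drives genes of the G2 phase and mitosis. Foxm1 stood at 10.4, 9.64 and 10.3 FPKM in the 3 si-NC libraries and at 15.7, 17.1 and 17.1 in the 3 OE-NC libraries. The groups did not overlap, and OE-NC was higher by 0.67 ± 0.05 on the log2 scale (± SE, limma adjusted p = 5.1e-07), a 1.65-fold ratio of means. Usp10, a deubiquitinating enzyme, was at 11.4, 11.3 and 10.7 FPKM in si-NC and 14.9, 14.1 and 14.4 in OE-NC, again with no overlap and with a difference of 0.35 ± 0.04 (limma adjusted p = 2.2e-05). An exact two-sided permutation test of either gene alone gave p = 0.1, the smallest value that 3 against 3 libraries allow. The level of Foxm1 in OE-NC was thus above that of si-NC without Foxm1 being the labelled target in either.

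The 2 highest single differences on the log2(FPKM + 1) scale were in chaperones of the heat shock response. Of the 16 tested members, 14 were higher in OE-NC, 6 of them at least 2-fold, and 1 was lower (2 under either scaling), with a median log2 difference of 0.69 against 0.06 over all genes. Hspa1a, the inducible HSP70, rose from 1.45, 1.33 and 1.44 FPKM in si-NC to 41.6, 34.4 and 32.4 in OE-NC. That was 3.94 ± 0.08 on the log2 scale (limma adjusted p = 1.5e-10), the highest difference of all tested genes, and its lowest OE-NC value was far above its highest si-NC value. Hspa1b, the neighbouring copy of the same gene, rose by 3.85 ± 0.07, from 2.76 ± 0.131 to 53.5 ± 5.79 FPKM (± SD, n = 3). The upstream windows of the pair in RefSeq matched at 296 of 300 bases, and with near-identical coding copies the division of reads between them is uncertain.

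Abundant members rose from levels that were already high. Hspa8, the HSP70 made in unstressed cells, went from 627, 612 and 602 FPKM to 1539, 1456 and 1456, a 2.42-fold ratio (log2 difference 1.27 ± 0.03, limma adjusted p = 1.16e-09). Hsp90aa1, the inducible cytosolic HSP90, went from 156 ± 4.91 to 432 ± 17.3 FPKM, and Hspd1, the mitochondrial chaperonin HSP60, from 139 ± 4.9 to 294 ± 11.6. These are among the 5 most abundant genes called at least 2-fold higher, and the list's sum was 4003 to 4258 FPKM in OE-NC and 2093 to 2151 in si-NC. Bag3, a co-chaperone of HSP70 that is also an HSF1 target, was at 56.2 ± 0.847 FPKM in si-NC and 54.8 ± 1.57 in OE-NC (limma adjusted p = 0.349; it was called lower with median-of-ratios scaling, adjusted p = 0.00715, and with quantile normalization, adjusted p = 0.0267). Hspa2, the testis-enriched HSP70, fell by 0.51 on the log2 scale from 2.91 ± 0.127 to 1.76 ± 0.283. Both were named after their values were seen, as the members outside the common direction.

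Hspd1 shares a divergent promoter with Hspe1, its co-chaperonin, which rose by 0.67 ± 0.04 (named for that reason, after its value was seen). The sequence is shown because it holds the heat shock element in the window searched, 250 bases before to 50 after the transcription start in RefSeq (GRCm38.p6). The element was searched on both strands as 3 alternating blocks of GAA and TTC with 2 bases between blocks. It was found in 3 of 12 heat shock members with a promoter entry (25%), Hspd1, Hspe1 and Hsph1, of which Hspd1 and Hspe1 share the same stretch, and in 0.555% of the 9014 tested genes with an entry. Hspa1a and Hspa1b had entries but no match to this form in the window searched. The 200 bases before the start of Hspd1 (chr1:55087933-55088132, minus strand) are written 5′ to 3′ with the overlapping elements in capitals.
Hspd1: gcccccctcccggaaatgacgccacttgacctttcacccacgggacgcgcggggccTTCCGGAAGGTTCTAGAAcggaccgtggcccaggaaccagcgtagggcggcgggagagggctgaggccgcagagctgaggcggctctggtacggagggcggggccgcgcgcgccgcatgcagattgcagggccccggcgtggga
A match describes these letters only, and binding of HSF1 was not measured.

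Targets of NRF2, the factor released from KEAP1 by electrophiles and oxidants, were higher in OE-NC without exception among the 16 tested (16 of 16 called, or 15 under median-of-ratios scaling), 10 of them at least 2-fold, with a median log2 difference of 1.15. Hmox1, heme oxygenase 1, stood at 65.8, 63.2 and 61.6 FPKM in si-NC and 417, 395 and 379 in OE-NC, a 6.25-fold ratio (log2 difference 2.62 ± 0.04, limma adjusted p = 5.88e-11). Srxn1, which repairs oxidised peroxiredoxins, rose from 10.4 ± 0.404 to 47.9 ± 1.76 FPKM. Gclm, the modifier subunit of the enzyme that limits glutathione synthesis, rose from 20.9, 19.5 and 21.1 to 79.3, 78.4 and 76.5 FPKM, and Txnrd1, thioredoxin reductase 1, from 56, 56.5 and 54.6 to 144, 140.5 and 138. Every OE-NC library exceeded every si-NC library for each of the 16. The glutathione transferase Gsta2, which was not on the list, was among the 12 highest genes: it had 0.783, 0.163 and 0.218 FPKM in si-NC and 5.03, 4.85 and 5.04 in OE-NC, a difference of 2.13 ± 0.13. Gsta2 reached the expression filter through OE-NC, since all its si-NC values were under 1 FPKM. Its near-identical paralog Gsta1 makes the reads of that pair uncertain.

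The core of the antioxidant response element, TGACNNNGC on either strand, was present in 6 of the 12 NRF2 members with a promoter entry (50%) and in 17.1% of all tested genes with one. The 200 bases before the start of Txnrd1 (chr10:82859006-82859205, plus strand, GRCm38.p6) and of Gclm (chr3:122245357-122245556, plus strand) are shown because the core lies within these bases, where it is in capitals.
Txnrd1: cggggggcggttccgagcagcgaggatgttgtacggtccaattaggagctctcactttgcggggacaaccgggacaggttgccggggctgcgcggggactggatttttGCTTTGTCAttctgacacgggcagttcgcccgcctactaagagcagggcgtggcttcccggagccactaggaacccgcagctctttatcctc
Gclm: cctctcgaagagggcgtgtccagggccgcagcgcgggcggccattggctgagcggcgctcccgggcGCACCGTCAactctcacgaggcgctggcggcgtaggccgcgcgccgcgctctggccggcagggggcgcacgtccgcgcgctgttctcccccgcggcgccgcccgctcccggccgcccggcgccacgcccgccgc

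Interferon-stimulated genes were higher in OE-NC for 32 of 33 tested members (30 under either scaling) and lower for 0, with a median log2 difference of 0.84 and 13 members changed at least 2-fold. Isg15, a ubiquitin-like antiviral modifier, was at 2.29, 2.09 and 3.08 FPKM in si-NC and 16, 16 and 17 in OE-NC (2.32 ± 0.09, limma adjusted p = 1.17e-08). Irf7, the factor that amplifies interferon transcription, went from 0.903, 1.3 and 1.62 to 6.6, 6.86 and 7.19 FPKM, and Ifit1, an RNA-binding antiviral protein, from 0.308, 0.957 and 0.601 to 5.77, 6.64 and 5.83. The groups were apart for each of these genes. Oasl1, an oligoadenylate synthetase-like protein, had 0.25 FPKM on average in si-NC and 3.43 in OE-NC.

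The change was not limited to effectors. All 7 sensors tested were higher with a median of 0.46, all 7 signalling members and factors with a median of 0.84, and 18 of 19 effectors with a median of 1.07; Gbp2, a guanylate-binding protein, was the member not called. Because 8 of the tested members had a si-NC mean under 1 FPKM and reached the expression filter through OE-NC, the count was repeated by limma voom on recovered counts for every member above 0, a check added after the data were seen, and 40 of 41 were then higher. Class I antigen presentation, another interferon-regulated set, moved less: 8 of 10 were higher and 1 lower, with a median of 0.33. B2m, the light chain of class I molecules, rose from 507 ± 14.2 to 607 ± 5.1 FPKM. The chemokines Cxcl10 and Ccl5, both induced by interferon, rose from 0.144 and 0.237 FPKM to 3.04 and 2.57, having passed the expression filter through OE-NC. The chemokine list had 4 of 9 tested higher, a share near the 41.7% of all genes, and 2 lower, and voom on all 14 members above 0 called 5 higher and 2 lower. The 16 macrophage markers summed to 210 to 229 FPKM in OE-NC and 277 to 285 in si-NC, and to 289 to 328 in OE-Foxm1 and 141 to 176 in si-Foxm1. Their part in the interferon genes was not tested.

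Promoters of this group carried the interferon-stimulated response element, searched as GAAANNGAA on both strands, in 15 of 25 members with an entry (60%), against 8.15% of all tested genes with an entry. Because the list is defined by pathway, this share describes the list and not the difference between the controls. The 2 members with the highest differences are shown, Isg15 (chr4:156200819-156201018, minus strand, GRCm38.p6) and Ifit1 (chr19:34640689-34640888, plus strand), 200 bases before the start with matches in capitals, where overlapping matches run together.
Isg15: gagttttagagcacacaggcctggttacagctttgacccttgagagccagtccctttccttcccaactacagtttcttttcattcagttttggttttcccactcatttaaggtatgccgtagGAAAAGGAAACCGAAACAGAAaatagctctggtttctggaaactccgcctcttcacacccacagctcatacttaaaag
Ifit1: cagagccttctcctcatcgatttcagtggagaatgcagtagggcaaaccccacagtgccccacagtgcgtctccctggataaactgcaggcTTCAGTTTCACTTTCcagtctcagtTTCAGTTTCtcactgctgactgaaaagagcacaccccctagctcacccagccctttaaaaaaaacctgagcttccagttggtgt

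**Figure D2:**
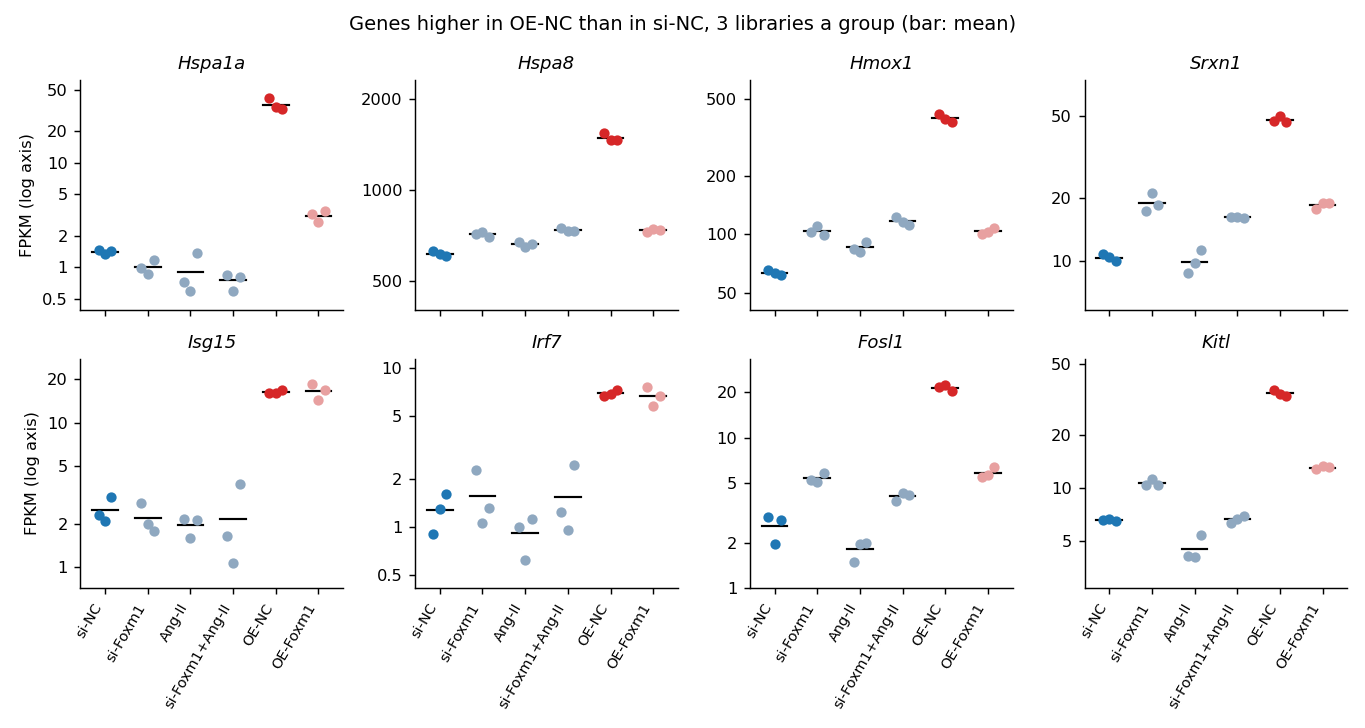
FPKM on a log axis in each of the 18 libraries for 8 genes that were higher in OE-NC, by group, with bars at the group means. Isg15 and Irf7 overlap between OE-Foxm1 and OE-NC, whereas Hspa1a, Hspa8, Hmox1, Srxn1, Fosl1 and Kitl are higher in OE-NC than in any of the other 15 libraries.

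Cell cycle genes were higher in OE-NC as a block. All 36 tested genes of DNA replication and S phase were called higher, also under both other scalings, with a median log2 difference of 0.68, and all of them had groups that did not overlap. Ccne1 and Ccne2, the E-type cyclins that start S phase, rose from 6.96 ± 0.312 and 6.14 ± 0.367 FPKM to 21.2 ± 0.591 and 19.2 ± 0.318. Rrm1, the large subunit of ribonucleotide reductase, went from 43.7, 43.2 and 44.3 FPKM to 83.9, 80.3 and 81.9, and Mcm5, a subunit of the replicative helicase, from 11.8, 11.6 and 11.4 to 24.4, 23.8 and 24.6 (2.09-fold, limma adjusted p = 6.42e-09). By role, the 14 licensing and helicase genes had a median of 0.77, the 19 synthesis genes 0.62 and the 3 regulators 1.48.

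Of 38 genes of mitosis and G2, 37 were higher, with a median of 0.70, and 1, the securin gene Pttg1 (named after its value was seen), was lower by 0.12 (limma adjusted p = 0.0436), a call lost without OE-NC replicate 2 or 3 or si-NC replicate 1 or 3, and also with a weaker or no filter, all 18 libraries in the fit, voom or the replicate block (adjusted p = 0.0575). Aurka, a spindle kinase, had 7.59, 7.09 and 7.62 FPKM in si-NC and 18.4, 18.5 and 17.9 in OE-NC (log2 difference 1.19 ± 0.04, limma adjusted p = 6.42e-09). Ccnb1, the cyclin of entry into mitosis, went from 19 ± 0.224 to 35.4 ± 0.352 FPKM, Hmmr, a spindle-associated protein, from 9.82 ± 0.544 to 20.4 ± 0.216, and Kif11, the motor that separates spindle poles, from 7.36 ± 0.151 to 14.9 ± 0.473. Kinases and cyclins (11 of 11), spindle and kinetochore genes (18 of 18) and exit regulators (8 of 9) all shared the direction. Foxm1 is a member of this list. Inhibitors of cyclin-dependent kinases moved little: 4 of 7 were higher, led by Cdkn2a at 0.47 ± 0.06 on the log2 scale, and 0 were lower, whereas median-of-ratios scaling gave 3 and 2 and quantile normalization 2 and 1.

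The CHR element, TTTGAA on either strand, through which the DREAM complex and B-MYB with FOXM1 act on G2 and M genes, was in 22 of 32 mitosis members with a promoter entry (68.8%) and in 14.1% of all tested genes with an entry. The window of Kif11 (chr19:37376182-37376381, plus strand, GRCm38.p6) is shown because the element lies within the 200 bases before its start, where it is in capitals.
Kif11: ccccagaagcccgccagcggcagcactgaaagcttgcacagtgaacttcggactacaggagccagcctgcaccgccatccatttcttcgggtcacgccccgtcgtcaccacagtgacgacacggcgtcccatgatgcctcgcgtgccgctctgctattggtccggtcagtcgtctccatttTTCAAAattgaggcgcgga
The CCAAT box was in 24 of the 32 (75%) and in 43.1% of all, and the E2F site TTTCCCGC was in 5 of 30 S phase members (16.7%) and in 2.5% of all. The lists searched for motifs are defined by pathway, so their shares describe the lists and not the difference between the controls. Of the 118 genes at least 2-fold higher, 89 had an entry. Their shares were 3.37% for the heat shock element, 25.8% for the antioxidant core, 13.5% for the interferon element and 14.6% for the CHR element. Of the 45 at least 2-fold lower, 31 had one, with shares of 0%, 9.68%, 9.68% and 9.68% in that order.

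Growth-related programmes went the same way. All 14 nucleolar genes of ribosome biogenesis were higher (median 0.53), with Ncl, nucleolin, at 57.4, 57.9 and 54.3 FPKM in si-NC and 89.6, 88.7 and 89.3 in OE-NC. Nolc1, a nucleolar phosphoprotein, rose by 0.76 ± 0.03 and Dkc1, the pseudouridine synthase dyskerin, by 0.82 ± 0.04. Of 14 proteasome subunits, 13 were higher (median 0.38), with Psmd1, a base subunit, going from 55.6 ± 0.39 to 80.6 ± 1.91 FPKM. The ribosomal proteins themselves moved by 0.18 at most: of 31, 3 were higher and 3 lower, and the balance turned with scaling, to 1 and 16 with median-of-ratios and to 10 and 2 with quantile normalization.

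Immediate early genes and their feedback genes, which respond to growth factor and stress kinases, were higher for 16 of 23 and lower for 3, with a median of 0.36. On the log2(FPKM + 1) scale, which ranks low genes down, Fosl1, the AP-1 subunit FRA1, had the third highest difference of all genes. It went from 2.95, 1.97 and 2.82 FPKM in si-NC to 21.8, 22.4 and 20.4 in OE-NC (2.66 ± 0.09, limma adjusted p = 7.5e-09). Myc rose from 17.8 ± 0.922 to 29.2 ± 0.732 FPKM, and Dusp6 and Spry2, which restrain ERK signalling, rose by 0.69 ± 0.03 and 0.56 ± 0.04. Ptgs2, the inducible cyclooxygenase, went from 1.31, 1.44 and 1.51 to 11.4, 10.1 and 9.74 FPKM, and Kitl, the ligand of the receptor KIT, from 6.63, 6.67 and 6.55 to 35.8, 34.1 and 32.9. For Fosl1, Ptgs2 and Kitl every OE-NC library had more than 3 times the value of the highest si-NC library. Around them the lists were mixed. NF-kB and acute inflammation had 6 of 15 higher and 4 lower (5 and 5 under either other scaling). The main shares were near the 41.7% and 25.0% of all tested genes. In this list Nfkbiz, an atypical IkB protein, was up by 1.38 ± 0.05 and Nfkb1 was at -0.38 ± 0.04.

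Among p53 targets 15 of 22 were higher and 4 lower (median 0.23; 11 and 5 with median-of-ratios scaling). The kinase Plk2 led them, from 16, 17.7 and 16.4 FPKM to 68.5, 68.6 and 63.6 (1.94 ± 0.04), and Sesn2, an antioxidant sestrin, rose by 1.05 ± 0.05, while Ei24, a protein of the endoplasmic reticulum, fell by 0.67 on the log2 scale. Cdkn1a, the p53-induced cell cycle inhibitor p21, was at 114 ± 4.45 FPKM in si-NC and 111 ± 2.77 in OE-NC (limma adjusted p = 0.357, or 0.0128 and lower with median-of-ratios scaling; it was named after its value was seen). The integrated stress response had 14 of 24 higher and 6 lower, where 41.7% of all tested genes were higher and 25.0% lower. Its members with the smallest p were Slc7a11, the cystine transporter that NRF2 also controls, at 3.26 ± 0.183 FPKM in si-NC and 14.5 ± 1.52 in OE-NC, and Psat1, an enzyme of serine synthesis, at 41.7 ± 0.269 and 85.3 ± 1.3. Atf5, a factor of the same response, fell from 169.9 ± 5.49 to 127 ± 3.68. Unfolded protein response genes had 8 of 21 higher and 6 lower, which became 4 and 9 with median-of-ratios scaling and 8 and 9 with quantile normalization. Their main shares were near those of all tested genes.

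Genes of cardiomyocytes were lower in OE-NC almost throughout. Of 22 markers, 19 were lower (17 with quantile normalization) and 1 higher, with a median log2 difference of -0.58. Nppa, the gene of atrial natriuretic peptide, was at 3386, 3655 and 3377 FPKM in si-NC and 1508, 1250.4 and 1349.6 in OE-NC, and Nppb, that of the B-type peptide, at 150.3, 185 and 163 and 44.3, 40.3 and 41. Nppb was lower by 1.96 on the log2 scale (-1.96 ± 0.07, limma adjusted p = 6.42e-09), a 3.97-fold ratio of si-NC to OE-NC. Actc1, cardiac alpha-actin, fell from 2669, 2929 and 2920.1 to 1414, 1341 and 1349 FPKM. Neither peptide nor the actin overlapped between the groups.

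The loss was uneven among sarcomere genes. Tcap, the titin cap protein, fell 3.24-fold, from 27.2 ± 1.23 to 8.38 ± 0.964 FPKM, Myh6, the alpha myosin heavy chain, 1.95-fold, and Tnnc1, cardiac troponin C, 2.0-fold. Tnnt2, cardiac troponin T, fell 1.32-fold but showed no difference after quantile normalization, since it held the same rank in all 6 libraries, and Ttn, titin itself, was at 21.4 ± 2.46 FPKM in si-NC and 20.3 ± 2.08 in OE-NC (limma adjusted p = 0.486). Casq2, calsequestrin, fell 1.79-fold and Ryr2, the calcium release channel, 1.8-fold. Ckm, the muscle creatine kinase, was 1.09-fold lower, while Ckmt2, its mitochondrial relative, was 1.4-fold higher, the member of this list that rose. The 5 calcium handling and hormone genes had a median of -0.84 and the 14 sarcomere genes -0.53. Asb2, a ubiquitin ligase subunit of muscle and blood cells, was the lowest of all tested genes, at 56.5, 61 and 56.8 FPKM in si-NC and 10.2, 11.1 and 10.3 in OE-NC (-2.36 ± 0.04, limma adjusted p = 1e-10). Kcne1, a potassium channel subunit of the heart, fell by 1.41 on the log2 scale, from 42.5 ± 0.965 to 15.4 ± 0.396 FPKM.

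**Figure D3:**
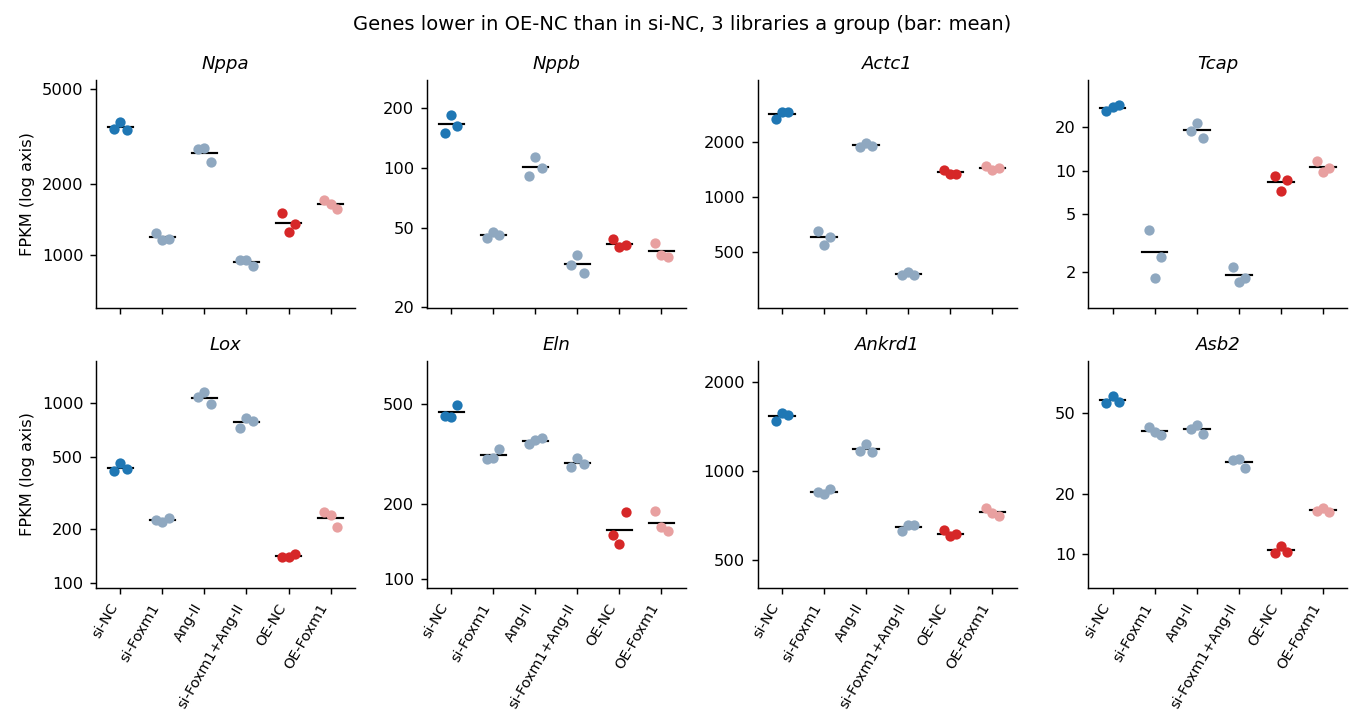
FPKM on a log axis in each of the 18 libraries for 8 genes that were lower in OE-NC than in si-NC, by group, with bars at the group means. For Nppa, Nppb, Actc1, Tcap, Eln, Ankrd1 and Asb2 the si-NC libraries are the highest of the series. Lox is highest in Ang-II (1078 FPKM on average). Tcap (2.75 ± 1.07 FPKM), Actc1 (605 ± 54.3) and Nppa (1191 ± 42.7) are lower in si-Foxm1 than in OE-NC. These genes and Nppb are also lower in si-Foxm1+Ang-II than in OE-NC.

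Of the markers of other cell types the cultures could hold, those of macrophages and the epicardium were mostly lower, and endothelial and smooth muscle markers moved little. Macrophage and leukocyte markers had 10 of 12 lower and 0 higher (12 of 12 lower under either scaling), with a median of -0.29 and the sums given above. Lyz2, lysozyme 2, went from 203 ± 3.63 to 156 ± 9.51 FPKM. Epicardial and mesothelial markers had 6 of 11 lower and 3 higher, with Upk3b, a uroplakin of mesothelium, falling from 15.5 ± 1.03 to 8.29 ± 0.31. Endothelial markers had 2 lower and 2 higher of 11 (4 and 1 with median-of-ratios, 5 and 1 with quantile normalization), and Pecam1 and Cdh5 missed the threshold with adjusted p of 0.438 and 0.283 in limma (Cdh5 was lower with quantile normalization, adjusted p = 0.0448). Smooth muscle and pericyte markers had 3 lower and 2 higher of 11. Of mast cell markers Kit was lower by 0.19 and Mcpt4 was not called, the glial marker S100b was lower by 0.17 (a call lost without OE-NC replicate 1 or 2 or si-NC replicate 1 or 2, and also with no filter, all 18 libraries in the fit, voom or the replicate block, adjusted p = 0.0692), and the 6 erythroid genes in the table summed to at most 0.0576 FPKM in any of the 6 libraries. Summed levels in si-NC and OE-NC were 239 to 247 and 168 to 174 FPKM for the 12 epicardial markers, 86.2 to 94.3 and 72.0 to 79.3 for the 12 endothelial markers, and 432 to 446 and 365 to 370.45 for the 12 smooth muscle markers. The 6 mast cell markers summed to 5.57 to 5.90 and 4.92 to 5.69 FPKM with 3 members at 0 in each library, Tpsb2 and Ms4a2 in all 6 and either Cpa3 or Cma1 as the third, and the 7 glial markers to 3.21 to 3.65 and 2.89 to 3.26. No macrophage, endothelial, smooth muscle or epicardial marker in the table was at 0. The part of these cell types in the other differences was not tested.

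Genes that mark fibroblasts were lower for 12 of 19 and higher for 4 (median -0.36; 2 or 3 higher under the other scalings). Dcn, the collagen-binding proteoglycan decorin, fell from 129.5, 132 and 132 FPKM in si-NC to 80.7, 77.9 and 85.3 in OE-NC (-0.69 ± 0.03, limma adjusted p = 7.39e-08), and Fbln2, fibulin 2, from 679.9 ± 1.39 to 474 ± 10.2. In the other direction, Thy1, a surface glycoprotein of fibroblasts, rose from 128, 112 and 114 to 211, 205 and 199 and Ly6a, the surface protein SCA1, from 3.78, 3.73 and 3.22 to 8.52, 8.42 and 7.67. By role, 7 of 8 secreted members were lower and 1 higher, 3 of 5 surface members were higher and 1 lower (the Pdgfra call was lost under both other scalings, with no filter, with all 18 libraries in the fit, and without OE-NC replicate 1 or 3 or si-NC replicate 2 or 3), and 4 of 6 transcription factors were lower; Gata4, Tbx20 and Hand2 among these are expressed in cardiomyocytes as well. Tcf21, the factor of the epicardial fibroblast lineage, fell from 133 ± 7.04 to 84.8 ± 4.75 FPKM.

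Matrix genes were mostly lower, with elastin and its cross-linking enzyme among the 12 lowest genes of all. Matrix glycoproteins were lower for 21 of 28 and higher for 3, with a median of -0.28: 7 of 8 proteoglycans (median -0.56), 8 of 11 elastic fibre genes (median -0.31) and 6 of 9 matricellular genes were lower. Eln, elastin, stood at 446, 444 and 497 FPKM in si-NC and 150.0, 138 and 184 in OE-NC, a 2.94-fold ratio (-1.56 ± 0.09, limma adjusted p = 1.44e-07). Lox, lysyl oxidase, which cross-links elastin and collagen, went from 421, 465 and 433 to 140.5, 140.1 and 146 FPKM (-1.62 ± 0.04). For both, every OE-NC library was under every si-NC library. Prelp, a leucine-rich proteoglycan, fell from 61.1 ± 2.57 to 28.5 ± 3.19, whereas Tnc, tenascin C, a matricellular protein of remodelling tissue, rose from 22.5, 21.7 and 21.7 to 53.2, 55.2 and 52.6 FPKM (1.25 ± 0.03, limma adjusted p = 1.16e-09).

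Collagens followed at smaller size, with 13 of 20 lower and 4 higher (median -0.21; 12 and 3 with quantile normalization, 14 and 2 with median-of-ratios). Of the 7 fibrillar chains 6 were lower (median -0.35). Col1a1, the main chain of type I collagen, went from 756, 718 and 731 FPKM to 587, 550.5 and 587, and Col5a2 and Col5a1, chains of the type V collagen that seeds fibrils, fell by 0.54 and 0.41 on the log2 scale. Matrix-modifying enzymes were lower for 13 of 25 and higher for 5; Timp3 and Timp2, inhibitors of metalloproteinases, fell from 179 ± 1.85 and 312 ± 6.55 FPKM to 81.4 ± 3.59 and 199.5 ± 1.05. Contractile genes of myofibroblasts had 13 of 21 lower and 4 higher but a median of only -0.09. Tagln, transgelin, fell from 565, 550.4 and 538 to 435, 429 and 444 FPKM, and Myocd, the smooth and cardiac muscle coactivator myocardin, from 10.9 ± 0.491 to 5.98 ± 0.162.

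Not all signalling lists went one way. Immediate early genes (16 and 3) and the p38 cascade with Usp10 (7 and 2) had more members higher than lower. The Hippo-YAP, BMP, Wnt, TGF-beta and growth factor lists had more members lower than higher. Any action of these pathways on the matrix genes was not tested. The Hippo-YAP list, which holds targets along with Yap1 and Wwtr1, was lower for 9 of 11 members. Ankrd1, a stretch-responsive muscle ankyrin protein, led them at 1472, 1574 and 1547 FPKM in si-NC and 631, 603 and 612 in OE-NC. The member of the list called higher was Yap1 itself, by 0.49 ± 0.03. BMP pathway genes were lower for 8 of 13 and higher for 2; Bmp4, a ligand, fell from 31 ± 0.623 to 15.9 ± 1.8, and the targets Smad6 and Id4 fell by 0.89 and 1.10 on the log2 scale. Wnt pathway genes were lower for 6 of 9, with the antagonist Sfrp2 at -0.63 ± 0.06. In the TGF-beta pathway 7 of 16 were lower and 1 higher around a median of -0.02; Tgfbr1, the type I receptor, fell from 12 ± 0.302 to 7.67 ± 0.244 FPKM. Growth factors and their receptors split into 14 lower and 8 higher of 27, with the IGF-binding proteins in both directions: Igfbp2 at -0.96 ± 0.03, Igfbp4 at -1.22 ± 0.05 and Igfbp5 at 1.06 ± 0.07.

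Cholesterol synthesis and uptake were lower for 21 of 24 genes (22 with median-of-ratios scaling) and higher for 1, with a median of -0.31. Mvk, mevalonate kinase, was at 40.7, 38.2 and 38.5 FPKM in si-NC and 21.8, 19.6 and 22.3 in OE-NC (-0.85 ± 0.05, limma adjusted p = 1.29e-07), and Mvd, which acts later in the same pathway, fell from 42.4 ± 1.29 to 23.8 ± 1.77. The groups did not overlap for either enzyme. Fatty acid and lipid storage genes were lower for 8 of 16 and higher for 4 (9 or 10 and 1 under the other scalings), with Scd2, a stearoyl-CoA desaturase, falling from 479 ± 11.9 to 307 ± 10.3 FPKM. Complement genes were lower for 5 of 8. Cholesterol efflux genes had 2 lower and 1 higher of 6.

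Other lists moved little or in both directions, where 41.7% of all tested genes were higher and 25.0% lower. Respiratory chain subunits had 2 higher and 4 lower of 28 (1 and 15 with median-of-ratios scaling, 8 and 4 with quantile normalization). Glycolysis and hypoxia genes had 8 and 5 of 23 (5 and 7 with median-of-ratios scaling), with Ndrg1 at -0.74 ± 0.05. Lysosome and autophagy genes had 5 and 8 of 22, led by Sqstm1, the autophagy receptor p62, which NRF2 also controls, up from 116 ± 2.73 to 192 ± 3.24 FPKM. The p38 cascade with Usp10 had 7 and 2 of 15, with the kinase Map2k3 at 0.62 ± 0.03 and its downstream kinase Mapkapk2 at -0.47 ± 0.03. Angiotensin and Gq genes had 4 and 4 of 12 (3 and 5 under either other scaling), with Rcan1, a calcineurin regulator, falling from 34.3 ± 2.0 to 17.9 ± 0.384. Natriuretic peptide receptors and endothelin genes had 1 and 4 of 6, and housekeeping genes 8 and 3 of 14 (4 and 4 with median-of-ratios scaling). The 4 histone genes tested, H1f2, H1f0, H2bc4 and H4c8, had 2 higher and 1 lower. Of the 4 Y-linked genes tested 2 were higher, with Ddx3y up 1.4-fold, and Kdm5d was lower by 0.20 on the log2 scale, while Eif2s3y was at 3.42 ± 0.141 FPKM in si-NC and 3.45 ± 0.172 in OE-NC. The mitochondrially encoded genes were not analysed here.

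A few leading genes belong to no list. LOC118568312, an uncharacterised locus with no entry in the reference tables, rose from 258, 269 and 255 FPKM to 836, 1095 and 1069, and it ranked among the 5 most abundant genes with at least a 2-fold increase. Plgrkt, a plasminogen receptor, fell from 19.6 ± 0.288 to 6.2 ± 0.559 FPKM, and Slc38a7, a glutamine transporter, from 21.3 ± 0.322 to 7.41 ± 0.451. Scel, sciellin, fell from 18.1 ± 0.816 to 5.92 ± 0.162, and Anxa8, an annexin, from 4.22 ± 0.594 to 0.956 ± 0.138. The OE-NC mean of Anxa8 was under 1 FPKM, so it reached the filter through si-NC. The groups were apart for each of these 5 genes.

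The other libraries of each arm gave a second look at the same genes without reusing any of the 6 libraries. OE-Foxm1 against si-Foxm1 also sets the overexpression arm against the knockdown arm, but Foxm1 was pushed in opposite directions there, so arm and Foxm1 cannot be told apart in it: Foxm1 was at 455 ± 48.7 FPKM in OE-Foxm1 and 5.97 ± 0.793 in si-Foxm1. In that comparison limma called 2822 genes higher (25.2%) and 3854 lower (34.4%). Of the 118 genes at least 2-fold higher in OE-NC than in si-NC, 73 were also higher in OE-Foxm1 than in si-Foxm1 (61.9%), 13 were lower (11%) and 32 were not called. Their median difference was 1.24 in the first comparison and 0.29 in the second. Of the 45 genes at least 2-fold lower, 21 were lower again (46.7%) and 17 were higher (37.8%), and the medians were -1.19 and -0.07. A test of the difference between the 2 comparisons, in 1 limma fit of the 12 libraries that was added after the data were seen, called 7321 genes (65.3%), 4845 higher (43.2%) and 2476 lower (22.1%). Among the 118 and 45 genes, 101 and 44 differed in the direction of the first comparison, which the choice of genes favours, since the first difference is a term of that test.

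Interferon genes were higher in both comparisons by a similar median. In the second comparison 32 of 33 were higher and 0 lower, with a median of 0.89. Isg15 was at 16.5 ± 2.1 FPKM in OE-Foxm1 and 2.18 ± 0.531 in si-Foxm1, beside 16.3 ± 0.573 in OE-NC and 2.49 ± 0.522 in si-NC, and its 2 differences did not pass the test against each other (-0.15 ± 0.16, limma adjusted p = 0.437). Ifit1 was at 5.77 ± 0.523 and 0.975 ± 0.111 FPKM. The difference between the comparisons was called for 14 of the 33 genes, 9 higher and 5 lower in OE-NC against si-NC. Class I genes recurred as well, with 9 of 10 higher (median 0.58).

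Heat shock, NRF2, replication and nucleolar genes were not raised as lists in the second comparison. Both of its groups still summed above si-NC in each of these lists. In si-NC, si-Foxm1 and OE-Foxm1, NRF2 targets summed to 3253 to 3431, 4255 to 4478.5 and 4150.5 to 4273 FPKM. S phase genes summed to 422 to 450, 528 to 573 and 551 to 595 FPKM in that order. Heat shock genes had 2093 to 2151, 2370 to 2455.5 and 2363 to 2382 FPKM. Nucleolar genes had 473 to 494, 544 to 592 and 509 to 524. For heat shock chaperones the second comparison had 4 of 16 higher and 6 lower (median 0.02), and the difference was called for all 16, 15 of them higher in OE-NC against si-NC. Hspa8 was at 735 ± 7.94 FPKM in OE-Foxm1 and 712 ± 15 in si-Foxm1, a difference of 0.05 ± 0.03, and Hspa1a at 3.11 ± 0.379 and 1.0 ± 0.153. For NRF2 targets 6 of 16 were higher and 5 lower (median 0.06). Hmox1 was at 104 ± 3.53 FPKM in OE-Foxm1 and 104 ± 5.87 in si-Foxm1, and Gsta2 went the opposite way, at 1.28 ± 0.45 and 6.55 ± 0.436, so the si-Foxm1 mean was above the 4.98 FPKM of OE-NC. For S phase genes 6 of 36 were higher and 10 lower (median 0.01), with the difference called higher for all 36. For ribosome biogenesis 0 of 14 were higher and 9 lower. Mitosis genes lay between, with 28 of 38 higher and a median of 0.38; Foxm1 itself, altered by design in both groups, is among them.

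**Figure D4:**
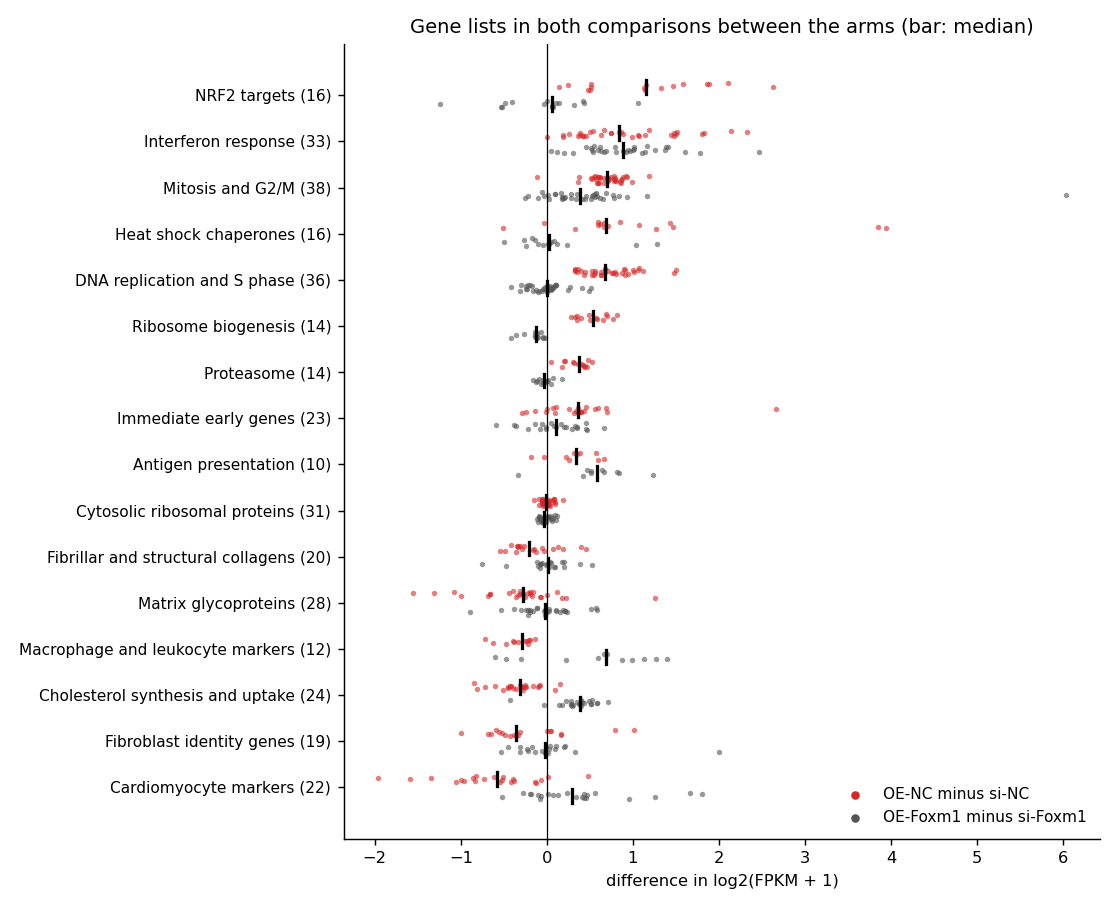
Each row is a gene list with its number of tested members; red points give OE-NC minus si-NC and grey points OE-Foxm1 minus si-Foxm1, in log2(FPKM + 1), with bars at the medians. The interferon medians are 0.84 and 0.89, the NRF2 medians 1.15 and 0.06, and the grey point at 6.03 among the mitosis genes is Foxm1.

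Several lowered lists turned direction in the second comparison. Cardiomyocyte markers had 12 of 22 higher and 5 lower (median 0.29), and the difference between the comparisons was called for 18 of them, 17 in the negative direction. Actc1 was at 1448 ± 41.7 FPKM in OE-Foxm1, near OE-NC, and at 605 ± 54.4 in si-Foxm1, and Tcap was at 10.6 ± 0.919 and 2.75 ± 1.07. The summed marker list was 11390.0 to 11928 FPKM in OE-Foxm1 and 9969.9 to 10562 in si-Foxm1, beside 10313 to 10881 in OE-NC. It was 12992 to 14172 FPKM in Ang-II and 7698.9 to 7975.1 in si-Foxm1+Ang-II. Every other group thus lay under the 17088 FPKM of the lowest si-NC library. Cholesterol genes had 21 of 24 higher (median 0.38), with the difference between the comparisons negative and called for 23; complement genes 8 of 8 and macrophage markers 9 of 12 were higher there as well. Asb2 and Eln kept their direction, at 16.6 ± 0.436 and 168 ± 16.4 FPKM in OE-Foxm1 and 40.8 ± 1.76 and 312 ± 16.6 in si-Foxm1, with smaller differences of -1.25 ± 0.04 and -0.89 ± 0.06. Lox did not, at 231 ± 22.8 and 225 ± 6.25 (limma adjusted p = 0.639).

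**Figure D5:**
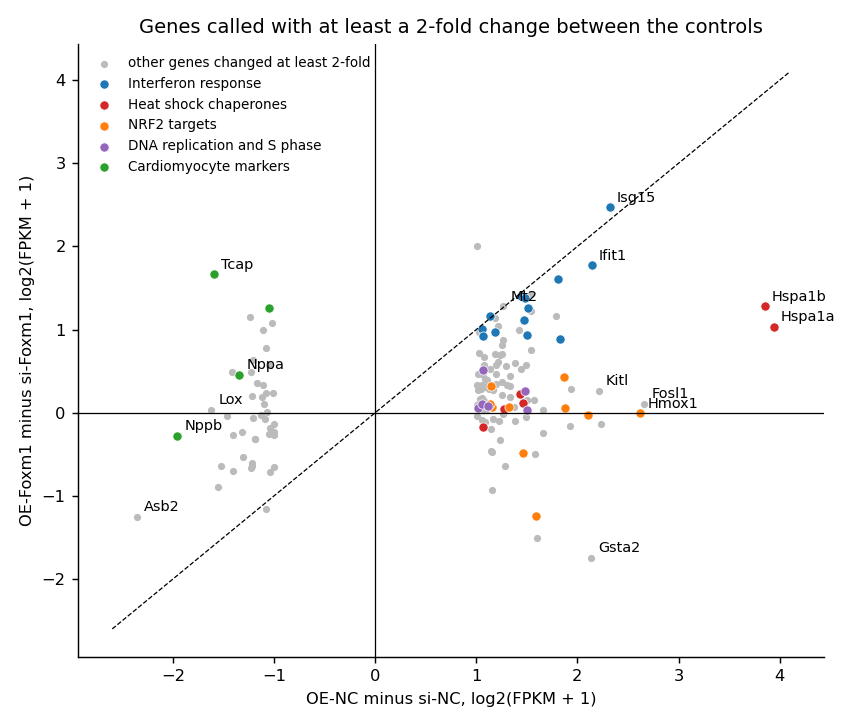
Each point is 1 of the 163 genes called with at least a 2-fold change between the controls, with OE-NC minus si-NC on the x axis and OE-Foxm1 minus si-Foxm1 on the y axis, both in log2(FPKM + 1); the dashed line marks equal differences. Interferon genes such as Isg15 (2.32 and 2.47) lie near the line, Hmox1 (2.62 on the x axis) lies near 0 on the y axis, and Tcap (-1.59 and 1.66) lies in the opposite quadrant.

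For 90 of the 118 raised genes all 3 OE-NC libraries exceeded the other 15 libraries, as they did for 17.4% of all tested genes. For 26 of the 45 lowered genes all 3 lay below them, against 10.9% of all. Since the genes were chosen for the distance of OE-NC from si-NC, these counts are a description. OE-Foxm1, which had no part in choosing the genes, exceeded all 9 libraries of si-Foxm1, Ang-II and si-Foxm1+Ang-II for 63 of the 118 raised genes, where 16.2% of all tested genes did so. It lay below them for 14 of the 45 lowered genes, where 7.29% of all tested genes did.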

How the data were processed

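RNA was measured by stranded mRNA sequencing in mouse neonatal ventricular cardiac fibroblasts. FPKM values per gene were deposited by the authors as a matrix of all libraries, and per the submitters' processing notes reads went through fastp, HISAT2 and HTSeq with mm39; the sources used here give neither versions nor the strand setting of the counting. Without it, overlapping and antisense genes cannot be separated. FPKM steps gave whole fragment counts for 17960 genes above 0 (100% of them, tolerance 0.02 fragments), and their sums are the depths given.

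Groups were taken from the labels. OE-NC was compared with si-NC by limma 3.58.1 (R 4.3.3, with version 1.17.8 of data.table), with an empirical Bayes trend, on log2(FPKM + 1), over genes whose mean reached 1 FPKM. Calls needed a Benjamini-Hochberg adjusted p under 0.05. The floor quoted is 3 fragments and covers counting error only. The procedure was also run on simulated data with 200 changed genes. The outcome of that run is not reported here, so no error rate for these data is drawn from it. Python 3.11.15 with numpy 2.4.6, pandas 2.3.3 and matplotlib 3.10.9 served for recovery, motifs and figures. Promoter sequences are RefSeq's for GRCm38.p6 and were matched by symbol for 9014 of 11216 tested genes (80.4%); the expression table rests on another build, so no coordinates were joined to it.

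Genes, members and 48 lists were chosen with earlier results of these data known. Named were Foxm1 and Usp10, the 12 highest and 12 lowest changes among genes called without overlap, the 5 most abundant at least 2-fold in each direction, up to 4 members with the smallest p per list, and the cell type markers. Bag3, Hspa2, Hspe1, Hsph1, Pttg1, Gbp2 and Cdkn1a were named after their values were seen. Alternatives were another pseudocount, weaker or no filters, 2 scalings, all 18 libraries in the fit, limma voom on recovered counts, a replicate block, a 2-fold minimum and leaving out each library. No replicate pair agreed within sampling noise (mean chi-square per gene 1.85 to 2.30). Some genes that the naming rule selects are not reported here.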

Additional observations from a re-analysis of the deposited data

Results flagged for a closer look

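For 22 of the 24 genes at either end of the comparison of controls, the difference OE-NC minus si-NC differed from OE-Foxm1 minus si-Foxm1 by the interaction term in limma at an adjusted p under 0.05, as it did for 65.3% of all tested genes. The 24 genes were picked for their first difference, which is a term of that test, so the count is a description. Isg15 and Ifit1 were the 2 for which it did not pass. Foxm1 also differs between OE-Foxm1 and si-Foxm1, so its part in this cannot be told apart from that of the arm.

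Among the raised genes the first difference exceeded the second by 2.91 on the log2 scale for Hspa1a, 2.57 for Hspa1b, 3.88 for Gsta2, 2.63 for Hmox1 and 2.56 for Fosl1. For Ptgs2 it was 2.37, for Srxn1 2.14, for LOC118568312 2.09, for Kitl 1.94 and for Plk2 1.65. In Gsta2 the excess is larger than the first difference itself, since si-Foxm1 was above OE-Foxm1.

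Among the lowered genes the difference of differences was -3.26 for Tcap, -1.90 for Anxa8, -1.80 for Nppa, -1.69 for Nppb and -1.66 for Lox. It was -1.43 for Scel, -1.14 for Kcne1, -1.11 for Asb2, -1.08 for Ankrd1, -0.88 for Plgrkt, -0.71 for Slc38a7 and -0.66 for Eln. The Tcap value combines a fall in OE-NC with a level in si-Foxm1 below that of every OE-NC library.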

How the results depend on the processing

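Calls between the controls numbered 7425 to 8235 over the other pseudocount, filters, scalings, model and voom on recovered counts, and 6949 to 7089 when any library was left out, with 4361 to 4435 higher and 2525 to 2681 lower. Requiring a 2-fold change left 163 genes, 118 higher and 45 lower, and 132 in OE-Foxm1 against si-Foxm1, where leaving out a library gave 6018 to 6311 calls. The labels do not say what a replicate number marks. Deviations of same-numbered libraries correlated weakly, at 0.0688, 0.0709 and 0.0494, and each OE-NC library correlated best with its own number. Whether same-numbered libraries were paired cannot be told from these values. The replicate block gave 7507 calls (4677 higher) and 6822 in the second comparison. Of 1680 values for 120 of the named genes under the alternatives, 1650 kept direction and side of the threshold, 25 lost the call, 4 gained it and 1, Tnnt2 under quantile normalization, became 0. Counts of short or flat lists moved by more than 1.5 times with single libraries. Ribosomal proteins had 9 lower without si-NC replicate 3, 7 higher without si-NC replicate 2, 1 higher without OE-NC replicate 1 or si-NC replicate 3, and 1 lower without OE-NC replicate 3, si-NC replicate 1 or si-NC replicate 2. Glycolysis genes had 3 lower without OE-NC replicate 2 or 3 or si-NC replicate 1 or 2. Lysosome genes had 3 higher without OE-NC replicate 1 or 2 or si-NC replicate 3. In 13 other lists a count of at most 2 changed by 1 or 2 when single libraries were left out. The shallower OE-NC libraries limit genes near the floor most.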
